A study of Mus musculus with 12 samples.

Results

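The 9 genes described here carry high-energy phosphate through muscle cells: the creatine kinases Ckm, Ckmt2 and Ckb, the creatine transporter Slc6a8, the creatine synthesis enzymes Gatm and Gamt, and the adenylate kinases Ak1, Ak3 and Ak4. They were taken by name from a table of 51912 genes, and all 9 were among the 13865 genes with enough reads to be tested. RNA was sequenced from mouse heart ventricles in 12 libraries, 3 each from LCHADD females, WT females, LCHADD males and WT males. The label LCHADD means a deficiency of long-chain 3-hydroxyacyl-CoA dehydrogenase, an enzyme that breaks down long-chain fatty acids, and the question addressed is how the ventricles of such mice differ from WT. Neither genotype received a treatment according to the labels, and the labels used here name no allele, strain or age and do not say whether replicates are separate animals, so the p-values measure only the spread between these libraries. Hadha, which encodes the enzyme named in the deficiency, had 23343 to 28083 normalised reads in LCHADD libraries and 21430 to 25845 in WT libraries. A read count does not show a change of sequence, so that level does not check the genotype labels.

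A muscle cell keeps ATP steady by moving phosphate between ATP and creatine. Mitochondrial creatine kinase makes phosphocreatine where ATP leaves the mitochondria, and cytosolic creatine kinases turn it back into ATP at the myofibrils and ion pumps. Adenylate kinases interconvert ATP, ADP and AMP (in the mitochondrial matrix also with GTP), and the AMP they leave is the signal read by the AMP-activated protein kinase. The heart makes little creatine of its own and takes up most of it from the blood through Slc6a8.

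The libraries held 16666455 to 19016973 reads in LCHADD and 15613668 to 23174936 in WT. Genes of the mitochondrial genome took 34.4 ± 2.70% of the reads in LCHADD libraries and 29.3 ± 1.94% in WT libraries (SD, n = 6 each). Levels below are the deposited normalised read counts, in which each library's reads are divided by its size factor. Changes are log2(value + 1) in LCHADD minus WT with the standard error (SE) of limma's fit over all 12 libraries, which understates changes of low genes. The threshold was 0.05 for the p adjusted by Benjamini and Hochberg's method across every tested gene, and each adjusted p is limma's unless another test is named.

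In females 5 of the 9 genes passed the test, all lower in LCHADD: Ckm, Ckb, Gamt, Ak1 and Ak4. Among all tested genes the share that passed in females was 33.8%, with 16.7% higher and 17.2% lower. In males Ak4 passed as lower and Slc6a8 as higher in LCHADD, where 15.5% of all genes passed, 7.71% higher and 7.77% lower. For the mean of both sexes Ckb, Gamt, Ak1 and Ak4 passed, all lower in LCHADD, against 40.8% of all genes, 20.3% higher and 20.6% lower. No member passed as higher in females or in the mean with limma, edgeR or DESeq2, while at an unadjusted p under 0.05 in limma's fit 1 member was higher and 6 lower in each of these comparisons. That looser threshold was met by 43.3% of all genes in females and by 49.1% in the mean, and by 29.7% in males, where 1 member was higher and 3 lower. The 9 genes had a median change of -0.28 in females and -0.18 in males, and of -0.17 for both sexes together. Over all tested genes the median was -0.0035 in females, 0.00 for males and -0.0019 for the mean. In the same 4 genes that passed in the mean, all 6 LCHADD libraries lay below all 6 WT libraries, an arrangement that 9.91% of all tested genes had, while no member had the opposite arrangement, found in 9.82%. Within a sex, all 3 LCHADD libraries lay below all 3 WT libraries for 5 members in females, against 22.3% of all genes, and for 6 members in males, against 19.3%. The 1 member with all LCHADD above all WT was Gatm in females (22.2% of all genes) and Slc6a8 in males (19.6%).

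**Figure D1:**
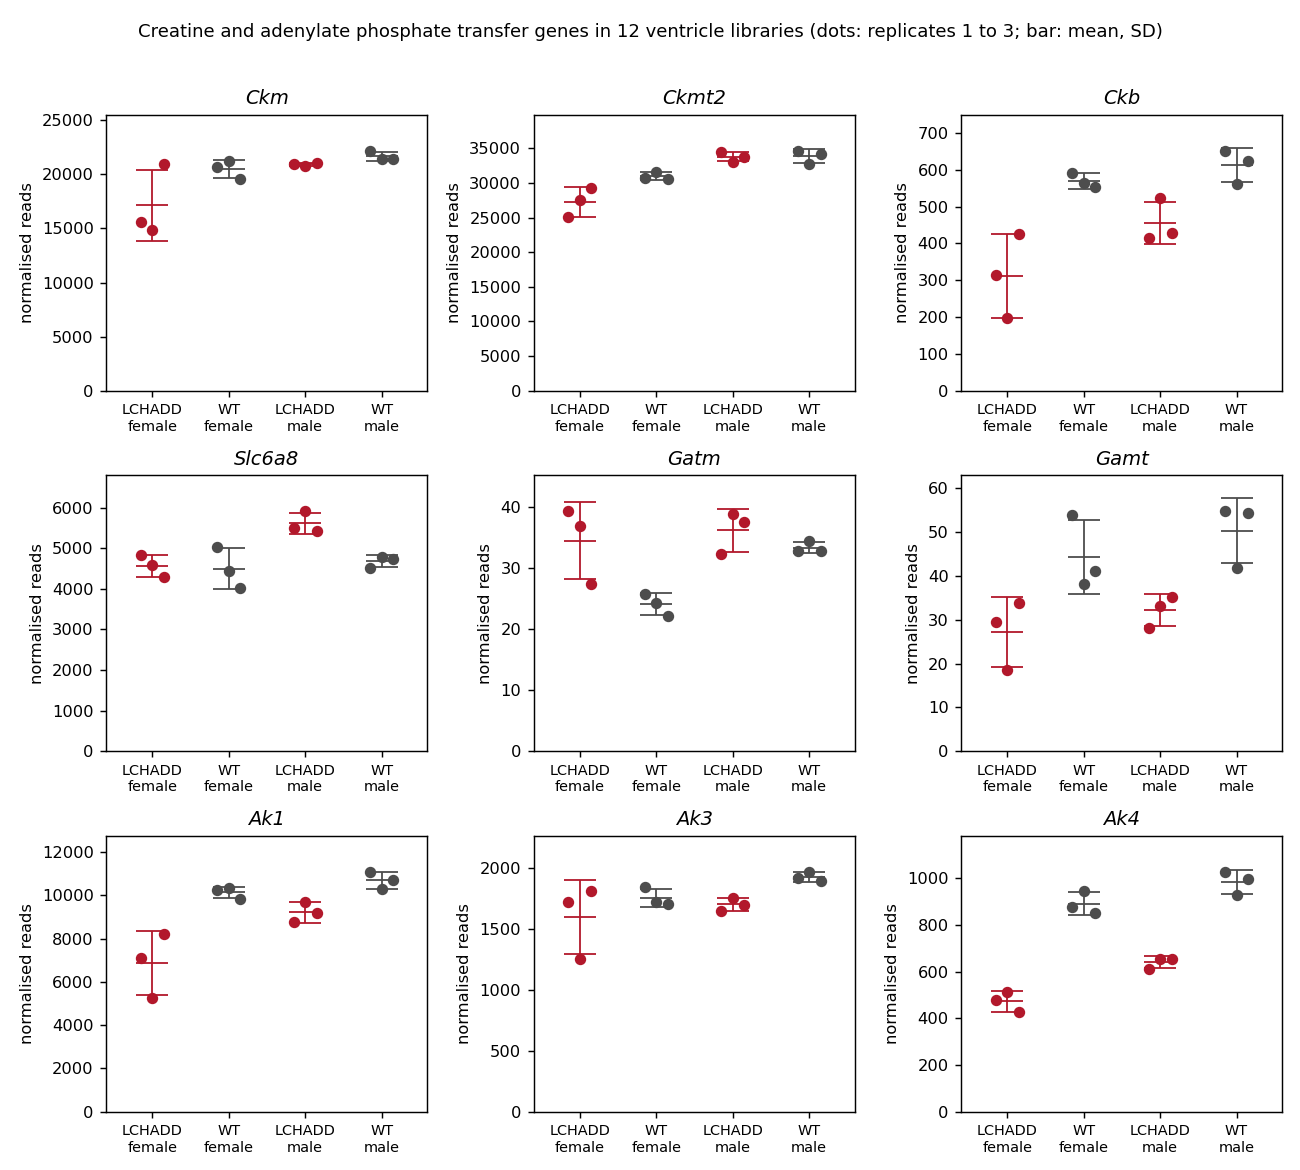
Normalised read count (y axis, from 0, own scale for each gene) of the 9 genes in each library, with LCHADD females, WT females, LCHADD males and WT males from left to right; each point is 1 library and each bar the mean of 3, with the SD. The Ak4 points of LCHADD libraries lie between 426 and 656 and those of WT libraries between 849 and 1027, while Slc6a8 overlaps between the female groups.

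The creatine kinase transcripts were dominated by the 2 muscle isoenzymes, and the brain-type isoenzyme showed the largest fall. Per kilobase of exon (normalised reads over the summed length of all exons), mitochondrial Ckmt2 stood at 20547 ± 2579 in LCHADD libraries and 21824 ± 1182 in WT libraries. The muscle-type Ckm stood at 6530 ± 1016 per kilobase in LCHADD libraries and 7243 ± 296 in WT libraries. Ckb, the brain-type cytosolic enzyme, stood at 133 ± 39.0 per kilobase in LCHADD libraries and 204 ± 13.7 in WT libraries (SD, n = 6 each).

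Ckb (ENSMUSG00000001270, chromosome 12) had 314, 197 and 425 normalised reads in LCHADD females 1, 2 and 3, against 592, 564 and 552 in WT females. It had 416, 522 and 429 in LCHADD males, against 651, 562 and 624 in WT males. Every LCHADD library lay below every WT library of its sex, and LCHADD female 2 was the lowest of the 12. The change was -0.93 (SE 0.19, 95% interval -1.35 to -0.52, adjusted p = 0.0017) in females, a level of 0.523 of the WT level. In males it was -0.43 (SE 0.19, interval -0.84 to -0.02), which did not pass over all genes (adjusted p = 0.15). When the males were fitted alone, with the same change and their own spread, the adjusted p was 0.0034, and without LCHADD female 2 or LCHADD female 3 it was 0.0078 and 0.042. For the mean of both sexes the change was -0.68 (SE 0.14, adjusted p = 0.00099), lower in 6 of 6 LCHADD libraries. RNA of whole tissue was measured, so fewer cells of a type and less RNA per cell cannot be told apart.

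Ckm (ENSMUSG00000030399, chromosome 7) had 15608, 14826 and 20940 normalised reads in LCHADD females, against 20727, 21213 and 19620 in WT females. LCHADD female 3 lay within the WT range and the other two LCHADD females below it. In males it had 20962, 20751 and 21043 in LCHADD libraries and 22182, 21380 and 21467 in WT libraries, a narrow gap with no overlap. The female change was -0.28 (SE 0.10, interval -0.49 to -0.06, adjusted p = 0.046) and the male change -0.05 (SE 0.10, interval -0.27 to 0.16, adjusted p = 0.78). The female call was lost when any 1 of the 11 libraries other than LCHADD female 3 was left out, with adjusted p of 0.056 to 0.16, and with edgeR (0.057) or DESeq2 (0.055). It was also lost with females fitted alone (adjusted p = 0.15), with libraries scaled by reads of nuclear genes only (0.11) and with no filter on low values (0.10). Without LCHADD female 3, the mean change of both sexes was -0.24 (adjusted p = 0.00042), against -0.16 (adjusted p = 0.08) with it.

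Ckmt2 (ENSMUSG00000021622, chromosome 13) had 25041, 27504 and 29303 normalised reads in LCHADD females, against 30701, 31651 and 30563 in WT females, with no overlap. It had 34425, 33105 and 33821 in LCHADD males and 34661, 32776 and 34230 in WT males, which overlapped. The change was -0.19 (SE 0.07, interval -0.34 to -0.03, adjusted p = 0.06) in females and -0.00 (interval -0.16 to 0.15, adjusted p = 0.98) in males. DESeq2 called the female change (adjusted p = 0.032), and leaving out LCHADD female 3 gave adjusted p = 0.015 in females and 0.049 in the mean of both sexes. In the mouse annotation GENCODE vM21 a stretch of 451 bases of Ckm and one of 84 bases of Ckmt2 overlap antisense genes, whose mean was 12.0 and 7.78 normalised reads, and whether counting used strand is not stated.

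The balance among creatine kinases was set out as ratios of normalised reads within each library, not corrected for exon length. Ckb amounted to 1.33 to 2.52% of Ckm in LCHADD libraries and 2.63 to 2.94% in WT libraries, with no overlap. The log2 ratio was -5.68 ± 0.30 in LCHADD and -5.16 ± 0.07 in WT libraries (SD, n = 6 each), and the difference of -0.52 had p = 0.005 in a two-sided exact permutation test within sexes. That is the smallest p the 400 regroupings can give, and it was 0.00667 after adjustment over the 4 ratios examined. Ckb was thus lower relative to its muscle isoenzyme in both sexes, by -0.66 in females and -0.38 in males. The log2 ratio of Ckmt2 to Ckm was 0.69 ± 0.13 in LCHADD and 0.62 ± 0.04 in WT libraries (SD, n = 6 each), a difference of 0.07 that did not pass (exact permutation p = 0.285). Without LCHADD female 3 the Ckmt2 to Ckm difference was 0.12 (exact permutation p = 0.005, the smallest its fewer regroupings can give). Of the libraries left out in turn, only LCHADD female 3 changed the call, and it had the lowest Ckmt2 to Ckm ratio of all. Leaving out any other library kept the difference at 0.018 or more.

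The start regions of Ckb and Ckm are shown because these paralogous cytosolic enzymes differed in their response. Each is 250 bases before to 50 bases after the RefSeq start site on build GRCm38.p6, read 5′ to 3′ on the gene's strand, chr12:111672289-111672588 (minus strand) for Ckb and chr7:19410844-19411143 (plus strand) for Ckm. Capitals mark the motifs found, TATAAA in Ckb and the E-box CANCTG in Ckm. Only exact matches to these words were marked. The Ckm window also holds ctatataac shortly before its start site, which TATAAA does not match. The marks therefore do not show that Ckm lacks an element of the TATAAA kind.
Ckb: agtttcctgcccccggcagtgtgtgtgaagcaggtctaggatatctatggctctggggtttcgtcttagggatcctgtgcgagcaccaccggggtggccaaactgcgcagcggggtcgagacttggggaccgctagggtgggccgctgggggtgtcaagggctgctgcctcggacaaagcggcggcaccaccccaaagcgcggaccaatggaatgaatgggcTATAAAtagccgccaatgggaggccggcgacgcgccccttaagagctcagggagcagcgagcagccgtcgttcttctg
Ckm: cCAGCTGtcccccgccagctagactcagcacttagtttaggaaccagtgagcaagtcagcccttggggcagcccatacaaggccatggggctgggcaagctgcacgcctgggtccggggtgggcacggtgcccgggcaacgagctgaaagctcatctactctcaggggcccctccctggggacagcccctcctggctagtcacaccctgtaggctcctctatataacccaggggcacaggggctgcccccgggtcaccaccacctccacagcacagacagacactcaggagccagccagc
TATAAA starts 28 bases before the Ckb start site, and 13.6% of all 32851 RefSeq windows of this length hold that word on either strand. The E-box CAGCTG starts 249 bases before the Ckm start site, and 51.4% of all windows hold a CANCTG on either strand. Motifs were searched on both strands, and CANCTG was also found in windows of Ckmt2, Gatm, Ak1 and Ak3, and TATAAA in that of start site 2 of Ak1. The Ak1 TATAAA and the Ak3 CANCTG began after the start site, at bases 22 and 41. A letter match describes the window and does not show that a factor binds.

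Among the genes of creatine uptake and synthesis, Slc6a8 passed as higher in LCHADD males, Gamt as lower in females and in the mean of both sexes, and Gatm did not pass. Slc6a8 (ENSMUSG00000019558, chromosome X), the creatine transporter of the plasma membrane, had 5505, 5910 and 5436 normalised reads in LCHADD males, against 4523, 4788 and 4743 in WT males, and every LCHADD male was above every WT male. It had 4825, 4577 and 4293 in LCHADD females and 5036, 4432 and 4027 in WT females, which overlapped. The change was 0.26 (SE 0.08, interval 0.09 to 0.43, adjusted p = 0.041) in males, a 1.2-fold level, and 0.03 (SE 0.08, interval -0.15 to 0.20, adjusted p = 0.84) in females. The male call was lost when any 1 of the 6 male libraries or WT female 2 was left out (adjusted p of 0.057 to 0.14). It was also lost with no filter on low values (adjusted p = 0.076). The mean change of both sexes, 0.14 (adjusted p = 0.057), passed without LCHADD female 3 (0.029) or WT female 1 (0.015). It also passed as higher, at 0.18 (adjusted p = 0.014), when libraries were scaled by the reads of nuclear genes only, with the mitochondrial genome left out. Under that scaling the changes of all tested genes in the mean rose by a median of 0.041, so this gain was not particular to Slc6a8. Slc6a8 was the fourth most abundant of the 9 genes per kilobase of exon, at 977 ± 119 in LCHADD and 881 ± 66.9 in WT libraries (SD, n = 6 each).

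Gamt (ENSMUSG00000020150, chromosome 10), the methyltransferase of the last step of creatine synthesis, had 29.5, 18.4 and 33.8 normalised reads in LCHADD females, against 54.0, 38.2 and 41.1 in WT females. It had 28.1, 33.2 and 35.3 in LCHADD males, against 54.8, 41.9 and 54.5 in WT males. All 6 LCHADD libraries lay below all 6 WT libraries. The change was -0.71 (SE 0.25, adjusted p = 0.041) in females and -0.63 (SE 0.25, adjusted p = 0.11) in males. Over both sexes together it averaged -0.67 (SE 0.18, adjusted p = 0.0077), where LCHADD stood at 0.629 of the WT level. The call in females rested on few reads, and of 23 alternatives 10 kept it and 13 lost it. It was lost without LCHADD female 1 or 2, any WT female, LCHADD male 2, or WT male 1 or 3. The adjusted p was then 0.050 to 0.18. It was also lost with DESeq2 (adjusted p = 0.051), with scaling by nuclear reads (0.057), with no filter on low values (0.10) and with females fitted alone (0.10). The call in the mean was kept when any 1 library was left out.

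Gatm (ENSMUSG00000027199, chromosome 2) encodes the amidinotransferase of the first step, which yields the guanidinoacetate that Gamt methylates. It had 39.4, 36.9 and 27.5 normalised reads in LCHADD females, against 25.8, 24.3 and 22.3 in WT females, with every LCHADD library above every WT library. It had 32.3, 38.9 and 37.6 in LCHADD males and 32.9, 34.5 and 32.9 in WT males, which overlapped. The change was 0.49 (SE 0.22, interval 0.02 to 0.96, adjusted p = 0.1) in females and 0.11 (interval -0.36 to 0.58, adjusted p = 0.78) in males, and neither passed. Gatm and Gamt were the lowest of the 9 genes per kilobase of exon, at 11.8 ± 1.55 and 20.6 ± 4.26 in LCHADD libraries and 9.59 ± 1.75 and 32.8 ± 5.40 in WT libraries (SD, n = 6 each). As a ratio of normalised reads, not corrected for exon length, Gatm had a median of 116% of Gamt in LCHADD libraries and 60.2% in WT libraries. Per kilobase of exon the mean of Gatm was below that of Gamt in both genotypes. The difference of the log2 ratios was 1.00 (exact permutation p = 0.005, 0.00667 over the 4 ratios), with 0.27 ± 0.43 in LCHADD and -0.72 ± 0.26 in WT libraries (SD, n = 6 each). The ratio was higher within each sex, by 1.24 in females and 0.76 in males, although the lowest LCHADD library, at 81.2%, lay just under the highest WT library, at 82.4%.

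**Figure D2:**
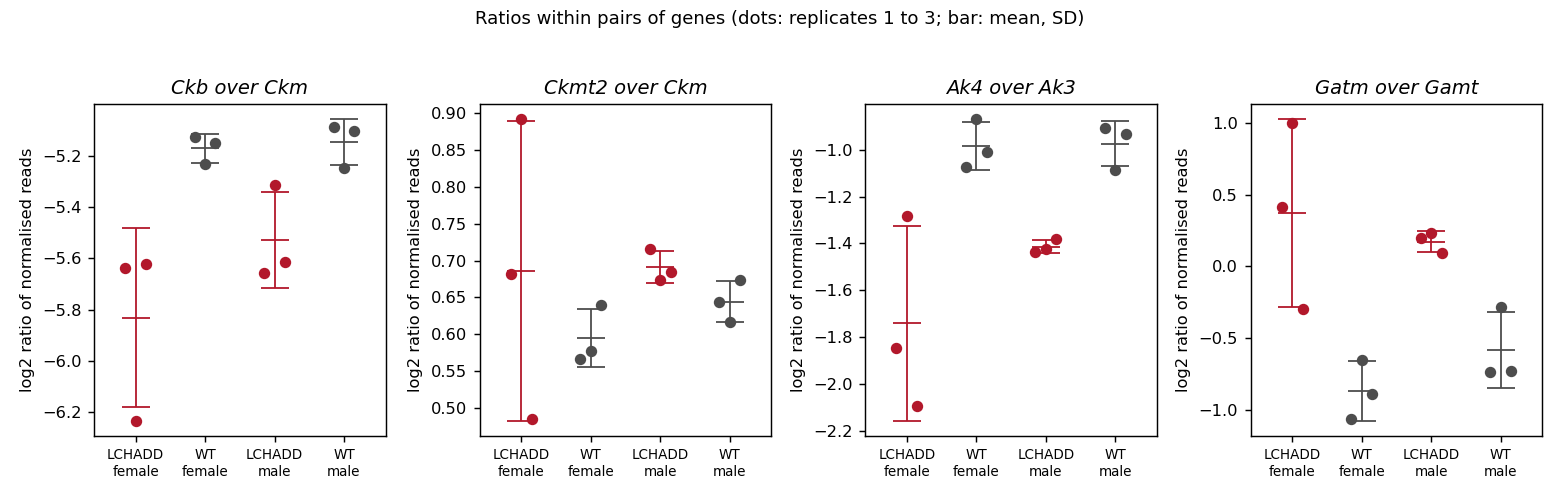
Log2 ratio of normalised reads within each library (y axis) for Ckb over Ckm, Ckmt2 over Ckm, Ak4 over Ak3 and Gatm over Gamt, with LCHADD left of WT for females and for males; each point is 1 library and each bar the mean of 3, with the SD. The Ckb to Ckm and Ak4 to Ak3 ratios of the 6 LCHADD libraries lie below those of the 6 WT libraries.

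Among the adenylate kinases Ak4 was lower in LCHADD in each sex, Ak1 in females and in the mean, and Ak3 did not pass. Ak4 (ENSMUSG00000028527, chromosome 4) is a mitochondrial matrix member of the family, as is Ak3. It had 480, 515 and 426 normalised reads in LCHADD females, against 878, 944 and 849 in WT females. It had 610, 656 and 653 in LCHADD males, against 1027, 930 and 995 in WT males. The groups did not overlap, and LCHADD males lay between LCHADD females and WT libraries of either sex. The change was -0.91 (SE 0.09, interval -1.10 to -0.73, adjusted p = 2.2e-06) in females, where LCHADD stood at 0.531 of the WT level. In males it was -0.62 (SE 0.09, interval -0.81 to -0.43, adjusted p = 0.00025), a level of 0.651. In the mean of both sexes it was -0.77 (SE 0.06, adjusted p = 2.3e-07), and these calls were kept under every alternative tried.

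The start region of Ak4 is shown because it was the member that passed in each sex. The first of its 4 annotated RefSeq start sites on build GRCm38.p6 lies in chr4:101419039-101419338 (plus strand), again 250 bases before to 50 bases after the start.
Ak4: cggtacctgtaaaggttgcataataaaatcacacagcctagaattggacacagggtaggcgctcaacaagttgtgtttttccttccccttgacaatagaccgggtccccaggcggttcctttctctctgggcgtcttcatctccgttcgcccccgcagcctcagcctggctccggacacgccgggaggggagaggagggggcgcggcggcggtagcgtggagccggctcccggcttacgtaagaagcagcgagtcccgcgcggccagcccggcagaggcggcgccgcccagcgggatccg
The sequence is in lower case throughout because none of the 5 motifs searched on both strands was found in it. They were the estrogen-related receptor element TNAAGGTCA (held by 1.28% of all windows), the C/EBP-ATF element TGATGNAA (3.97%), the cyclic AMP response element TGACGTCA (1.79%), CANCTG and TATAAA. Guanine and cytosine made up 64.3% of the Ak4 window, beside 64.7% for Ckm and 63.0% for Ckb.

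Ak1 (ENSMUSG00000026817, chromosome 2), the main cytosolic adenylate kinase of muscle, had 7085, 5271 and 8217 normalised reads in LCHADD females, against 10226, 10321 and 9850 in WT females. It had 8750, 9694 and 9173 in LCHADD males, against 11081, 10292 and 10715 in WT males. All 6 LCHADD libraries lay below all 6 WT libraries, with LCHADD female 2 lowest. The change was -0.59 (SE 0.12, interval -0.83 to -0.34, adjusted p = 0.0012) in females, a level of 0.666 of WT, and -0.40 (SE 0.08, adjusted p = 0.0011) in the mean of both sexes. In males it was -0.22 (SE 0.12, interval -0.46 to 0.03, adjusted p = 0.23), and it passed when males were fitted alone (0.014) or without LCHADD female 2 (0.023). Per kilobase of exon Ak1 was the most abundant adenylate kinase, at 3097 ± 625 in LCHADD and 4016 ± 165 in WT libraries (SD, n = 6 each).

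Ak3 (ENSMUSG00000024782, chromosome 19), a matrix enzyme that uses GTP, had 1728, 1252 and 1818 normalised reads in LCHADD females and 1845, 1725 and 1706 in WT females, which overlapped. It had 1651, 1759 and 1701 in LCHADD males, against 1922, 1972 and 1896 in WT males, with no overlap. The change was -0.16 (SE 0.11, adjusted p = 0.29) in females, -0.18 (adjusted p = 0.28) in males and -0.17 (SE 0.08, interval -0.33 to -0.01, adjusted p = 0.092) in the mean. The male change passed with males fitted alone (adjusted p = 0.046) or without LCHADD female 2 (0.043), and the mean without LCHADD female 3 (0.019). Its exons share 430 bases, 13.8% of their length, with Cdc37l1 on the opposite strand, a gene with a mean of 1196 normalised reads, so the level of Ak3 is uncertain where strand was not used. In normalised reads, not corrected for exon length, Ak4 amounted to 23.4 to 41.1% of Ak3 in LCHADD libraries and 47.2 to 54.7% in WT libraries. The log2 ratio was -1.58 ± 0.32 in LCHADD and -0.98 ± 0.09 in WT libraries, a difference of -0.60 (SD, n = 6 each, exact permutation p = 0.005, 0.00667 over the 4 ratios).

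**Figure D3:**
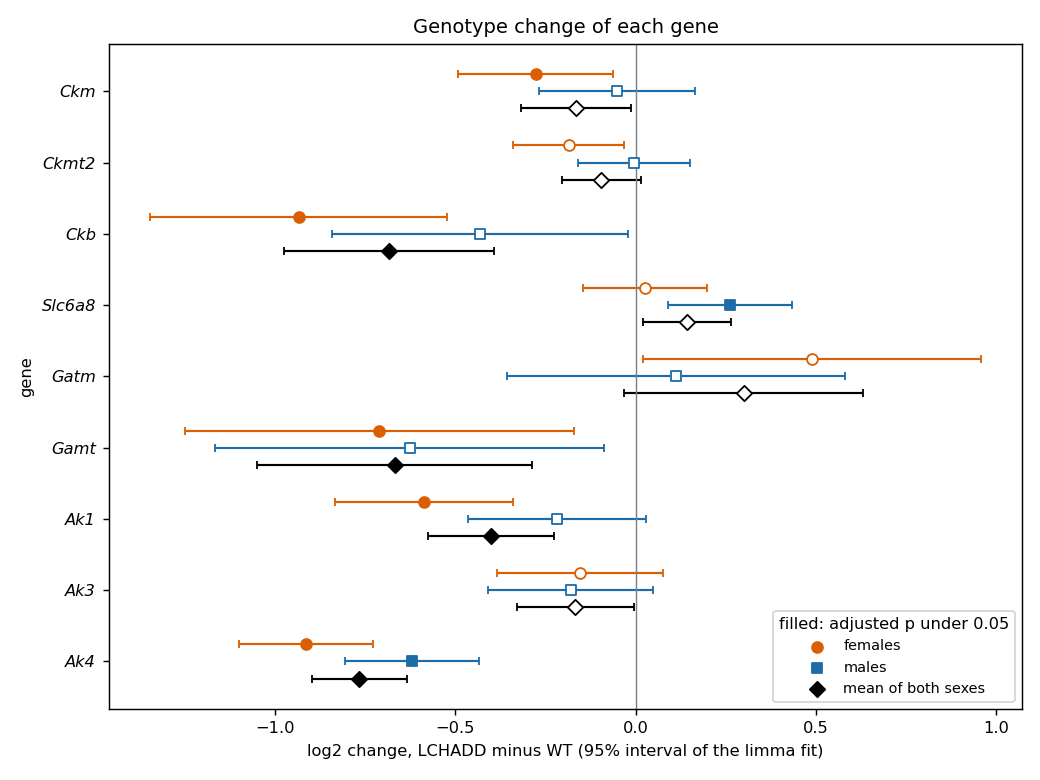
Change in LCHADD against WT on the log2(value + 1) scale (x axis) for the 9 genes, in females, males and the mean of both sexes; points are the fitted changes and lines their 95% intervals. The Ak4 intervals lie below 0 in both sexes, while the male intervals of Ckm, Ckmt2, Gatm, Ak1 and Ak3 cross 0.

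In order of level per kilobase of exon the genes ran Ckmt2, Ckm, Ak1, Slc6a8, Ak3, Ckb, Ak4, Gamt and Gatm in both genotypes, and the order was the same with the length of the principal transcript, a length chosen after the data were seen. Among neighbours in that order, Ckb at 133 ± 39.0 and Ak4 at 120 ± 20.8 in LCHADD libraries, and at 204 ± 13.7 and 202 ± 14.5 in WT libraries, differed by less than their spread (SD, n = 6 each). With the principal transcript length Ckb, at 261 ± 76.6 in LCHADD and 401 ± 26.9 in WT libraries, stood above Ak4, at 128 ± 22.2 in LCHADD and 215 ± 15.5 in WT libraries, so the likeness of their levels held for the exon length alone. The ranges of every other pair of neighbours were apart in WT libraries. In LCHADD libraries the ranges of Gamt (12.8 to 24.4 per kilobase of exon) and Gatm (9.15 to 13.1) overlapped, and those of the remaining pairs were apart.

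The changes in females and males were compared directly by the interaction of genotype and sex. None of the 9 genes passed with limma, edgeR or DESeq2, and in limma's fit Ak1 and Ak4 had an unadjusted p under 0.05, as did 9.83% of all genes. The difference of the female and male changes was -0.29 (SE 0.12, adjusted p = 0.46) for Ak4, -0.37 (SE 0.16, adjusted p = 0.48) for Ak1, -0.50 (SE 0.27, adjusted p = 0.57) for Ckb and -0.24 (SE 0.11, adjusted p = 0.52) for Slc6a8. Of all tested genes 1 (0.00721%) passed, Acta1, which encodes skeletal muscle actin. Without LCHADD female 3 the Ckm difference of -0.38 passed (adjusted p = 0.049). Genes called in 1 sex and not in the other are therefore not shown to differ between sexes.

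For the 4 genes that passed in the mean of both sexes, the profiles most like theirs over the 12 libraries are given. They were found by the root mean square difference of log2 values centred on each gene's mean. For Ak4 the genes most like it were Alas1 (0.084), Gsn (0.091) and Ldhd (0.10), where the median gene was at 0.454. Alas1 encodes the first enzyme of heme synthesis. For Ak1 they were Kyat1 (0.042), Reep5 (0.054) and Gas6 (0.054), with the median gene at 0.345. For Ckb they were Synpo2 (0.076), Asb15 (0.083) and Pdp2 (0.091), with the median gene at 0.503. For Gamt they were Zfp395 (0.067), Plekha2 (0.135) and Synpo2 (0.138), with the median gene at 0.459. The libraries share their genotype, sex and sequencing depth across genes, and likeness is given as a description.

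Other genes of the same pathways moved in both directions. Their changes are given for the mean of both sexes. Ak6, a nuclear member of the adenylate kinase family, had a change of 0.54 (SE 0.10, adjusted p = 0.0005), but 56.5% of its exon length is shared with Taf9 in vM21, so its count is uncertain. Slc16a12, a creatine transporter of other tissues, changed by -0.68 (SE 0.19, adjusted p = 0.01).

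Of 10 genes that move adenine nucleotides and phosphate across the mitochondrial membranes, 9 were tested, and 3 passed as higher and 3 as lower in the mean of both sexes, beside 20.3% higher and 20.6% lower among all tested genes. The adenine nucleotide translocases, which exchange ATP for ADP across the inner membrane, moved in opposite directions. Slc25a5, the widely expressed form, had 9701, 9685 and 8705 normalised reads in LCHADD females, against 4526, 4558 and 4163 in WT females. It had 7791, 6844 and 8117 in LCHADD males, against 4192, 4245 and 4429 in WT males. The change was 0.95 (SE 0.05, adjusted p = 9e-09), and no LCHADD library overlapped a WT library. Slc25a4, the heart and muscle form, had 70777, 70834 and 79391 in LCHADD females, against 100034, 104348 and 98365 in WT females. It had 79623, 85183 and 84593 in LCHADD males, against 99697, 98492 and 99661 in WT males. Its change was -0.36 (SE 0.06, adjusted p = 0.00016), again without overlap. Slc25a25, an ATP-Mg and phosphate carrier, changed by -0.89 (SE 0.12, adjusted p = 3.4e-05), and the outer membrane pore Vdac3 by 0.37 (SE 0.05, adjusted p = 7.6e-05). The phosphate carrier Slc25a3 (-0.15, adjusted p = 0.051) and the pore Vdac1 (0.01, adjusted p = 0.93) did not pass.

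Of 18 enzymes that handle AMP, nucleosides and other nucleoside phosphates, 16 were tested, and 7 passed as higher and 4 as lower in the mean of both sexes, against the same 20.3% and 20.6% of all genes. Nt5c1a, the cytosolic nucleotidase that turns AMP into adenosine, had 132, 82.5 and 116 normalised reads in LCHADD females and 229, 220 and 241 in WT females. It had 180, 203 and 191 in LCHADD males and 284, 339 and 296 in WT males. All LCHADD libraries lay below all WT libraries, and the change was -0.88 (SE 0.11, adjusted p = 1.4e-05). Adenosine kinase Adk changed by -0.23 (adjusted p = 0.0019) and guanylate kinase Guk1 by 0.28 (adjusted p = 0.0027). The nucleoside diphosphate kinase Nme1 changed by 0.61 (SE 0.09, adjusted p = 7.9e-05), and it overlaps a readthrough gene, which makes its count uncertain. Adsl (0.15, adjusted p = 0.11) and Nt5c3 (0.16, adjusted p = 0.19) did not pass.

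Of the 7 tested subunits of the AMP-activated protein kinase, 2 passed in the mean of both sexes, where 40.8% of all genes passed, both as lower. They were Prkab1 at -0.41 (SE 0.07, adjusted p = 0.00024) and the muscle regulatory subunit Prkag3 at -0.64 (SE 0.20, adjusted p = 0.017). Prkag3 was low, at 21.9 to 77.9 normalised reads, and its LCHADD and WT libraries overlapped. Its change passed in females (-0.96, adjusted p = 0.015) and not in males (-0.31, adjusted p = 0.49). The catalytic subunit Prkaa2, at 0.02 (adjusted p = 0.75), and Prkab2, at -0.01 (adjusted p = 0.90), did not pass. Of 8 genes for methyl donors and arginine beside creatine synthesis, 6 were tested and all 6 passed as higher, as did 20.3% of all genes. They include Ahcy (0.50, SE 0.08, adjusted p = 0.00014), which removes the product inhibitor of methyltransferases such as Gamt, its relatives Ahcyl1 (0.30, adjusted p = 0.00062) and Ahcyl2 (0.35, adjusted p = 0.00025), and Gnmt (0.97, SE 0.24, adjusted p = 0.0045), which methylates glycine. The median changes of these lists in the mean of both sexes were -0.11 for mitochondrial transport, 0.19 for the AMP and nucleoside enzymes, -0.00 for the protein kinase subunits and 0.35 for the methyl donor genes, beside -0.0019 for all tested genes.

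**Figure D4:**
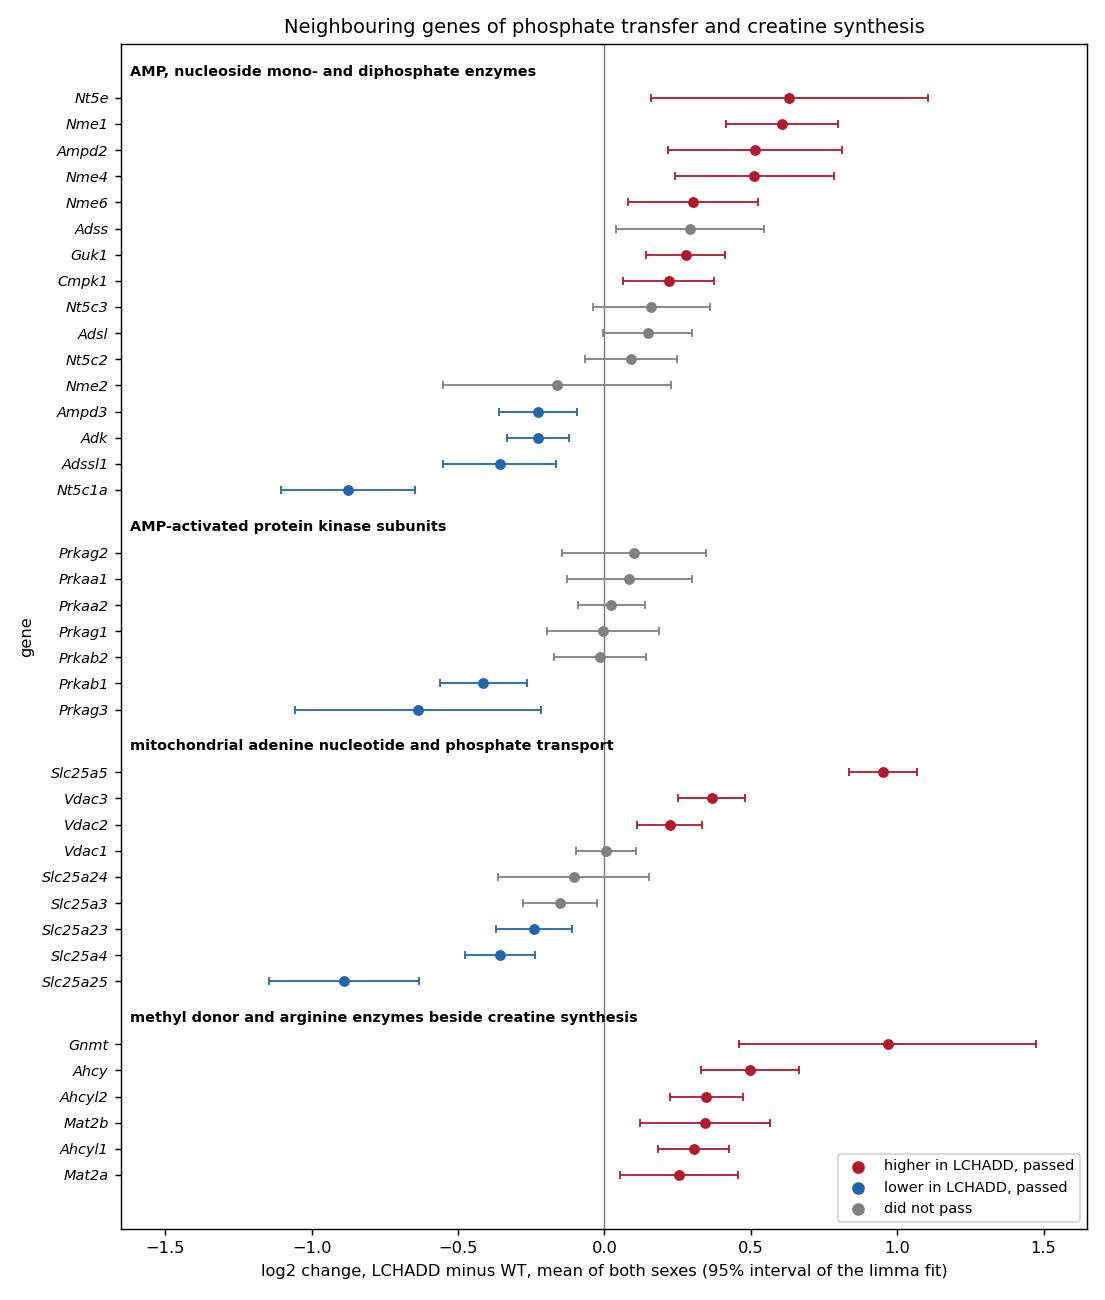
Change in LCHADD against WT in the mean of both sexes on the log2(value + 1) scale (x axis) for every tested gene of 4 further lists; points are the fitted changes and lines their 95% intervals. Slc25a5 (0.95) and Slc25a4 (-0.36) lie on opposite sides of 0, and all 6 methyl donor genes lie above 0.

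Levels of cell type markers were also compared between the genotypes, and their calls are those of the mean of both sexes unless a sex is named. Among all tested genes 20.3% passed as higher and 20.6% as lower in the mean, and 16.7% passed as higher in females. All LCHADD libraries lay below all WT libraries for 9.91% of single genes. Of 8 ventricular cardiomyocyte markers, 6 passed as lower and 1 as higher. Their sum ran between 503832 and 882864 normalised reads in LCHADD libraries and between 936601 and 1007290 in WT libraries. Fibroblast markers (6 of 6 lower) summed to 5576 to 7110 in LCHADD and 7945 to 9465 in WT libraries, and endothelial markers (5 of 6 lower) to 8493 to 9897 in LCHADD and 10839 to 11916 in WT libraries. Of 5 tested erythroid markers all 5 were lower, with sums of 1915 to 4489 in LCHADD and 6973 to 12559 in WT libraries. The sums did not overlap between the genotypes for these lists. Smooth muscle and pericyte markers (3 of 5 tested lower) summed to 6592 to 11079 in LCHADD and 9264 to 11197 in WT libraries, and Schwann and nerve markers (3 of 5 tested lower) to 61.2 to 118 in LCHADD and 111 to 175 in WT libraries. Macrophage markers (0 of 6 passed in limma's fit of the mean, with 1, Adgre1, at an unadjusted p under 0.05, and Adgre1 at 0.61 and Cd68 at 0.66 passed as higher in females, with adjusted p of 0.033 and 0.023) summed to 1365 to 1807 in LCHADD and 1323 to 1795 in WT libraries. Of 8 skeletal muscle markers 4 were tested, Acta1 passed as higher and 1 as lower, and Myh4 was at 0 and Myh1, Myh2 and Tnnt3 were under 10 in every library. The sum was 5021 to 13576 in LCHADD and 1452 to 5782 in WT libraries. Nearly all of it was Acta1, which had 5000 to 13558 normalised reads in LCHADD and 1408 to 5755 in WT libraries. Adipocyte markers summed to 409 to 541 in LCHADD and 300 to 390 in WT libraries, with 5 of 6 under 10 in every library. That sum was nearly all Cidea, the 1 gene of the list tested, which had 407 to 540 normalised reads in LCHADD and 298 to 388 in WT libraries and passed as higher (0.50, adjusted p = 0.00027). Atrial markers, of which Bmp10 passed as higher and Myl7 and Sln were under 10, summed to 232 to 368 in LCHADD and 179 to 275 in WT libraries. The part of these differences, and of the higher mitochondrial share, in the results for the 9 genes was not tested.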

How the data were processed

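The authors deposited 1 signal value per gene and library, the read count divided by a library's size factor. The submitters' processing notes name bcl2fastq, DESeq2 and build GRCm39, whereas aligner, counter, annotation and strand setting were not stated in any source used. In every library 100.0% of the deposited values came out as whole multiples of 1 step (tolerance 0.01), so whole reads were recovered for edgeR 4.0.16 and DESeq2 1.42.0 as alternatives. Symbols were matched for 51633 of 51912 IDs, and exon lengths and overlaps came from GENCODE vM21 on GRCm38, so no gene coordinates are given. Promoter windows came from RefSeq on GRCm38.p6, with entries for 8 of the 9 genes.

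Genes reaching a value of 10 in 3 or more of 12 libraries (13865, holding 99.926% of the reads) were fitted as log2(value + 1) with 4 group means in limma 3.58.1 (R 4.3.3, lmFit and eBayes with trend), and p-values were adjusted by Benjamini-Hochberg over all of them. Groups follow the labels' genotype and sex. The 4 ratios were tested by exact permutation within sexes. The 9 genes and the lists were chosen with earlier results of these data known. Pathway genes were named by adjusted p (at most 4 passing genes a list) and by abundance (at most 2 others). For each of the 9 genes the 3 genes of most alike profile were found among 10257 candidates. One further kinase gene is not reported here.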

Additional observations from a re-analysis of the deposited data

How the results depend on the processing

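No change that passed turned its direction. For the 9 genes taken singly, 731 alternative values kept their direction and side of the threshold, 20 gained a call, 39 lost it and 14 turned the sign of a change near 0, none of which passed. Leaving out single libraries, the change of Slc6a8 in females ran between -0.051 and 0.11 (below 0 without LCHADD female 1 or WT female 3) and that of Ak3 in females between -0.26 and 0.012 (above 0 without LCHADD female 2). Ckmt2 in males ran between -0.028 and 0.012 (above 0 without LCHADD male 2, WT male 1 or WT male 3), and was 0.011 with nuclear-read scaling (size by reads of nuclear genes only). The interaction ran between -0.26 and 0.16 for Gamt (above 0 without LCHADD female 2, WT female 1 or WT male 2) and between -0.077 and 0.19 for Ak3 (below 0 without LCHADD female 1 or 3). Without both WT female 3 and LCHADD female 2, Slc6a8 in females was at -0.054 and the Gamt interaction at 0.12. The count of the 9 genes passing in females, 5, was 3 with no filter on low values, with nuclear-read scaling, with the sex fitted alone and without both WT female 3 and LCHADD female 2. Leaving out single libraries gave 3 to 6, and Ckb, Ak1 and Ak4 were in each of the counts of 3. In males the count, 2, was 1 with no filter, 5 with the sex alone and without both of those libraries, and 1 to 5 leaving out single libraries. For the mean it was 4 to 8, with 8 only without LCHADD female 3. Of all tested genes 4692 passed in females, with 3733 to 5075 leaving out single libraries and 4837 with nuclear-read scaling. In the mean 5661 of all tested genes passed, with 5019 to 6033 leaving out single libraries. The count of all genes passing in males, 2146, was 3342 with the sex alone, 3317 without both libraries and 1317 to 3293 leaving out single libraries (3293 without LCHADD female 2). The interaction, with 1 gene, had 2 with a filter at 50, 2 with edgeR, 101 with DESeq2, 9 without both libraries and 0 to 186 leaving out single libraries, and 0 to 1 of the 9 genes. The Ckmt2 to Ckm difference ranged between 0.018 and 0.12 leaving out single libraries. The cause of these moves was not tested. Nuclear-read scaling shifted the median of all genes by 0.067 in females and 0.041 in the mean, and the higher share of calls was 59.6% against 49.3% in females.

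Same-numbered libraries of different groups had correlations of their deviations from group means between -0.106 and 0.0491 over 18 pairs. Unlike-numbered libraries had -0.122 to 0.151 over 36 pairs. The values gave no sign of pairing by replicate number, and whether same-numbered libraries shared an origin was not tested. With a replicate block 4502 genes passed in females, 2016 passed in males and 5482 in the mean, with 4, 2 and 4 of the 9 genes, Ckm in females being the 1 lost (adjusted p = 0.061), and 1 gene passed the interaction. On the recovered reads edgeR called 4821 genes in females, 2149 in males and 5709 for both sexes together. Gatm and Gamt had few reads, 18.4 to 54.8 normalised reads per library, which limits the precision of their changes.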
